A study of Gallus gallus with 18 samples.

Results

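The 10 genes described here are the FGF receptors FGFR1, FGFR2, FGFR3 and FGFR4, the ligand FGF8, and the response genes SPRY1, SPRY2, ETV4, ETV5 and DUSP6. They were taken by symbol from a deposited table of 30108 chicken genes, and all 10 were found once. Whole RNA enriched for poly(A) came from pooled trigeminal ganglia of wildtype chicken embryos, and the labels do not say how many ganglia made a pool. The groups were 3 stages of the Hamburger-Hamilton (HH) series, which orders embryos by outer form, namely HH13-14, HH15-16 and HH17-18. Each stage had 3 pools, and each pool was sequenced on lanes 7 and 8. There was no treatment, and no group carried an allele other than wildtype.

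Fibroblast growth factors (FGFs) are secreted proteins that bind receptor tyrosine kinases together with heparan sulfate. The bound receptor signals through RAS and the kinase ERK, and ERK activity switches on a small set of genes, among them ETS-type transcription factors and proteins that damp the same signal. The trigeminal ganglion forms from neural crest and from ectodermal placodes. FGF signals take part in placode formation, and the boundary of midbrain and hindbrain, which lies beside the forming ganglion, is a known source of FGF8.

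In the RefSeq annotation of GRCg7b, the build named in the submitters' processing notes, FGFR1 lies on chromosome 22 from 2504806 to 2524443. FGFR2 lies on chromosome 6 from 31659852 to 31760763, and FGF8 on the same chromosome from 23501490 to 23509886. FGFR3 lies on chromosome 4 from 82918126 to 82970476, and SPRY1 on that chromosome from 52868037 to 52891574. FGFR4 lies on chromosome 13 from 9880156 to 9885465. DUSP6 and SPRY2 are on chromosome 1, from 43341540 to 43346237 and from 152630538 to 152636591. ETV5 is on chromosome 9 from 4776702 to 4787363, and ETV4 on chromosome 27 from 3160578 to 3174795.

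The 9 pools held 53458986 to 68083147 counts after the lanes were summed. Levels are normalised read counts (CPM, each count scaled to a common library size) on library sizes scaled by the trimmed mean of M-values, and they are not divided by transcript length, so levels of different genes are not ranked against each other. All 10 genes were among the 17724 that passed the filter on low counts, with 35 to 24440 counts per pool. Of the ganglion markers, TUBB3, a neuronal tubulin, ranged from 688 to 1182 CPM and SOX10, a neural crest factor, from 69.6 to 237 CPM. The sensory neuron factors ISL1 and POU4F1 ranged from 8.13 to 39.1 CPM and from 0.954 to 3.66 CPM. Markers of neighbouring tissue were also present. Over 8 markers of the midbrain-hindbrain boundary, none of them at 0 in any pool, the summed level was 316 to 432 CPM at HH13-14, 166 to 518 CPM at HH15-16 and 113 to 421 CPM at HH17-18. Over 5 macrophage markers, 4 of which rose over the interval from HH13-14 to HH17-18, the sum was 5.83 to 9.86 CPM, 7.43 to 31.0 CPM and 24.1 to 68.8 CPM at the same stages. Over 9 head mesenchyme markers, likewise none at 0, it was 2364 to 2515 CPM, 1586 to 3228 CPM and 2543 to 4119 CPM at the same stages.

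FGFR4 fell over the interval from HH13-14 to HH17-18, and it was the member of the 10 that passed the test. The other 3 receptors, FGF8 and the 5 response genes did not pass it at any step. FGF8 instead differed by up to 91.2-fold between pools of a single stage. SPRY1 and SPRY2 were lowest in the same 2 pools as FGF8, and FGFR2 was highest in them.

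The test was edgeR's quasi-likelihood test over all 9 pools, with p-values adjusted over all 17724 genes by Benjamini and Hochberg and a threshold of 0.05. For HH17-18 against HH13-14, 1 of 10 members was called, lower at HH17-18, beside 4.51% of all genes called, 2.40% higher and 2.12% lower. A single called gene of 10 is no more than a description of that gene. For the stage effect as a whole, 0 of 10 were called, beside 1.30% of all genes, and the smallest adjusted p was 0.0545, that of FGFR4. At an unadjusted p under 0.05 the stage effect held 2 members in edgeR, beside 16.7% of all genes. At an adjusted p under 0.05 DESeq2 called 1 member, FGFR4, beside 1371 of 18035 genes.

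The separate steps gave no call. For HH15-16 against HH13-14, 0 of 10 members and 0% of all genes were called in edgeR. In that test 1 member had an unadjusted p under 0.05, beside 10.1% of all genes. DESeq2 called 0 members there, beside 103 of 17021 genes. For HH17-18 against HH15-16, 0 of 10 were called in edgeR beside 0.0790% of all genes. An unadjusted p under 0.05 was found for 2 members, beside 9.32% of all genes. DESeq2 called 0 members in this step, beside 345 of 20064 genes. The difference between the later and the earlier step gave 0 members in edgeR beside 0.00564% of all genes. It held 0 at an unadjusted p under 0.05, beside 4.36% of all genes. For this difference DESeq2 called 0 members, beside 9 of 26153 genes. The median log2 fold change of the 10 members over the interval was -0.03, beside 0.02 over all genes tested.

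**Figure D1:**
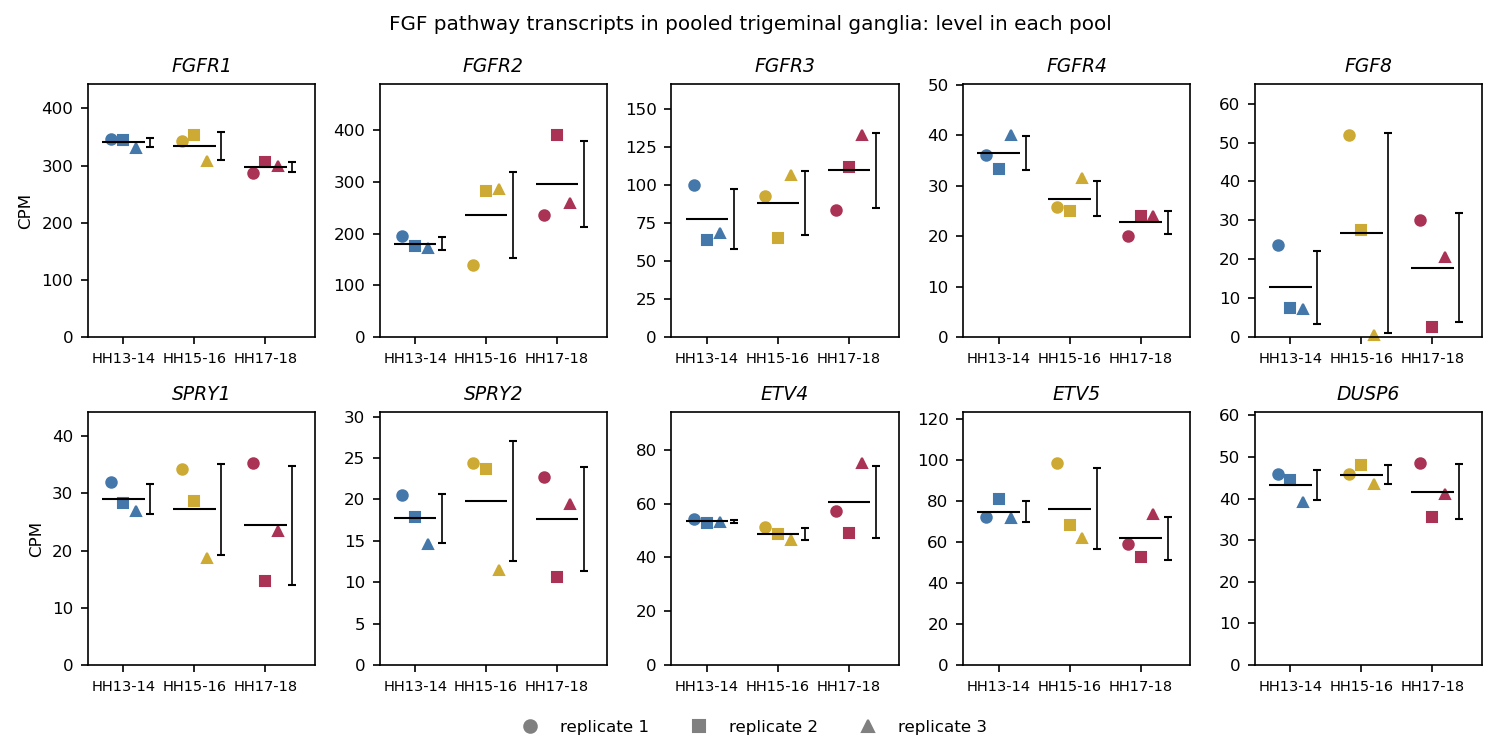
Level of each gene in CPM (vertical axes, each from 0) at HH13-14, HH15-16 and HH17-18. Symbols mark replicates 1 to 3, the line is the mean and the bar beside it ± 1 SD over 3 pools. FGFR4 lies lower at each later stage, from a mean of 36.5 CPM at HH13-14 through 27.4 CPM at HH15-16 to 22.7 CPM at HH17-18, while the pools of FGF8 at HH15-16 run from 0.570 to 51.9 CPM.

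FGFR4 is a receptor that in the chick is known as an early marker of the ophthalmic trigeminal placode. It had 36.0, 33.3 and 40.0 CPM in replicates 1 to 3 of HH13-14, 25.8, 25.0 and 31.5 CPM at HH15-16, and 20.1, 24.1 and 24.0 CPM at HH17-18. Every pool of HH15-16 lay below every pool of HH13-14, and every pool of HH17-18 lay below every pool of both earlier stages. The share of all genes whose pools lay apart in this way was not counted, here or for the genes that follow. At HH17-18 it averaged 22.7 ± 2.28 CPM, against 36.5 ± 3.35 CPM at HH13-14 (SD, n = 3 each). The log2 fold change was -0.68 (SE 0.13, 95% interval -0.96 to -0.40, edgeR adjusted p 0.0205), which is 0.624-fold.

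By step, FGFR4 had log2 fold changes of -0.41 for the earlier (edgeR adjusted p 0.427) and -0.27 for the later (edgeR adjusted p 0.551). Neither step passed alone. The difference between the steps, later minus earlier, was 0.14 (SE 0.22, edgeR adjusted p 0.953), so a difference between the steps did not pass. The call over the interval was lost when any pool of HH13-14 was left out, with edgeR adjusted p-values of 0.0859, 0.0566 and 0.0903 without replicates 1, 2 and 3. It was also lost without replicate 3 of HH17-18 (edgeR adjusted p 0.0542). Calls over all genes were fewer in these fits too. They were 98, 120 and 106 without replicates 1, 2 and 3 of HH13-14, and 177 without replicate 3 of HH17-18. The main fit called 800. The log2 fold change of FGFR4 stayed between -0.78 and -0.60 over all 22 alternatives. Those at an adjusted p under 0.01 and under 0.1 reused the main fit and could not move it.

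Bulk RNA cannot tell fewer cells of a type from less RNA per cell, here or in the results that follow. Beside the fall of FGFR4, the summed level of 5 markers of the ophthalmic placode was 309 to 329 CPM at HH17-18, against 322 to 359 CPM at HH13-14. The sum of 8 neural crest markers was 485 to 695 CPM at HH17-18, against 706 to 821 CPM at HH13-14. In edgeR 1 of the 5, CD151, fell, and it averaged 94.3 CPM at HH17-18, against 133 CPM at HH13-14, while EYA1 of the same list averaged 91.7 CPM at HH17-18, against 64.2 CPM at HH13-14 (edgeR adjusted p 0.114). Of the 8 crest markers 1, ETS1, fell, and SOX9 averaged 46.3 CPM at HH17-18, against 24.4 CPM at HH13-14 (edgeR adjusted p 0.0737). The median log2 fold change of the 8 was -0.47. FOXD3, TFAP2A, TFAP2B and SOX10 had -1.02, -0.74, -0.63 and -0.32 (edgeR adjusted p 0.0822, 0.0933, 0.177 and 0.676). MSX1 and ERBB3 had 0.04 and 0.07 (edgeR adjusted p 0.936 and 0.924). Neither list had a marker at 0 in any pool, and the part of these cells in the result was not tested.

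FGFR1, a receptor known from many embryonic tissues, had 346, 345 and 331 CPM at HH13-14, 342, 353 and 307 CPM at HH15-16, and 288, 306 and 299.7 CPM at HH17-18. All 3 pools of HH17-18 lay below all others, though by little. It averaged 298 ± 9.22 CPM at HH17-18, against 341 ± 8.22 CPM at HH13-14 (SD, n = 3 each). The log2 fold change was -0.19 (95% interval -0.34 to -0.05, edgeR adjusted p 0.127), and over 22 alternatives the adjusted p ran from 0.0527 to 0.309. The pools of a stage were tight for this gene, with an SD of 0.07 on the log2 scale beside a median of 0.23 over all genes.

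FGFR2 carries the splice forms through which epithelia and mesenchyme read different FGFs, and the gene counts do not separate these forms. It had 195, 176 and 172 CPM at HH13-14, 140, 283 and 286 CPM at HH15-16, and 237, 391 and 259 CPM at HH17-18. Each HH17-18 pool exceeded each HH13-14 pool, and those of HH15-16 were spread across both. It averaged 296 ± 83.3 CPM at HH17-18, against 181 ± 12.5 CPM at HH13-14 (SD, n = 3 each). The log2 fold change of 0.71 (95% interval 0.14 to 1.27) did not pass over all genes (edgeR adjusted p 0.143). It did pass in the fit of these stages alone (edgeR adjusted p 0.0368) and in the fit without replicate 1 of HH15-16 (edgeR adjusted p 0.0265). These fits called 1390 of 17191 and 1508 of 18159 genes. Without replicate 2 of HH17-18 the log2 fold change of FGFR2 was 0.45 (edgeR adjusted p 0.401), in a fit that called 290 of 18129 genes.

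Markers of several other tissues, head mesenchyme among them, were low or high in the pools where FGFR2 was. The pool with the lowest FGFR2, replicate 1 of HH15-16, had a mesenchyme sum of 1586 CPM, the lowest of the 9. The pool with the highest, replicate 2 of HH17-18, had a sum of 4119 CPM, the highest of the 9. ALX4, a homeobox gene of frontonasal mesenchyme, had 230 CPM in the first of these pools and 640 CPM in the second, and the collagen gene COL1A2 had 502 and 1280 CPM. The sum of 6 skeletal muscle markers was likewise lowest in the first of them, at 62.3 CPM, and highest in the second, at 199.8 CPM. The sums of the sensory neuron, placode, neural crest, endothelium and blood markers were also lowest in replicate 1 of HH15-16. The sums of the hindbrain and neural tube, glia and boundary markers were instead highest there, at 203, 254 and 518 CPM. In replicate 2 of HH17-18 they were the lowest of the 9 pools, at 65.5, 122 and 113 CPM. What part any of these tissues had in the level of FGFR2 was not tested.

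FGFR3 had 100.2, 64.0 and 68.5 CPM at HH13-14, 93.0, 65.3 and 106 CPM at HH15-16, and 83.8, 112 and 133 CPM at HH17-18. The stages overlapped, with replicate 1 of HH13-14 above replicate 1 of HH17-18. The log2 fold change for HH17-18 against HH13-14 was 0.50 (95% interval 0.0025 to 0.99, edgeR adjusted p 0.230), and no alternative gave a call. At an unadjusted p under 0.05, 4 members were found in this comparison, and they were the 4 receptors, beside 21.6% of all genes.

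**Figure D2:**
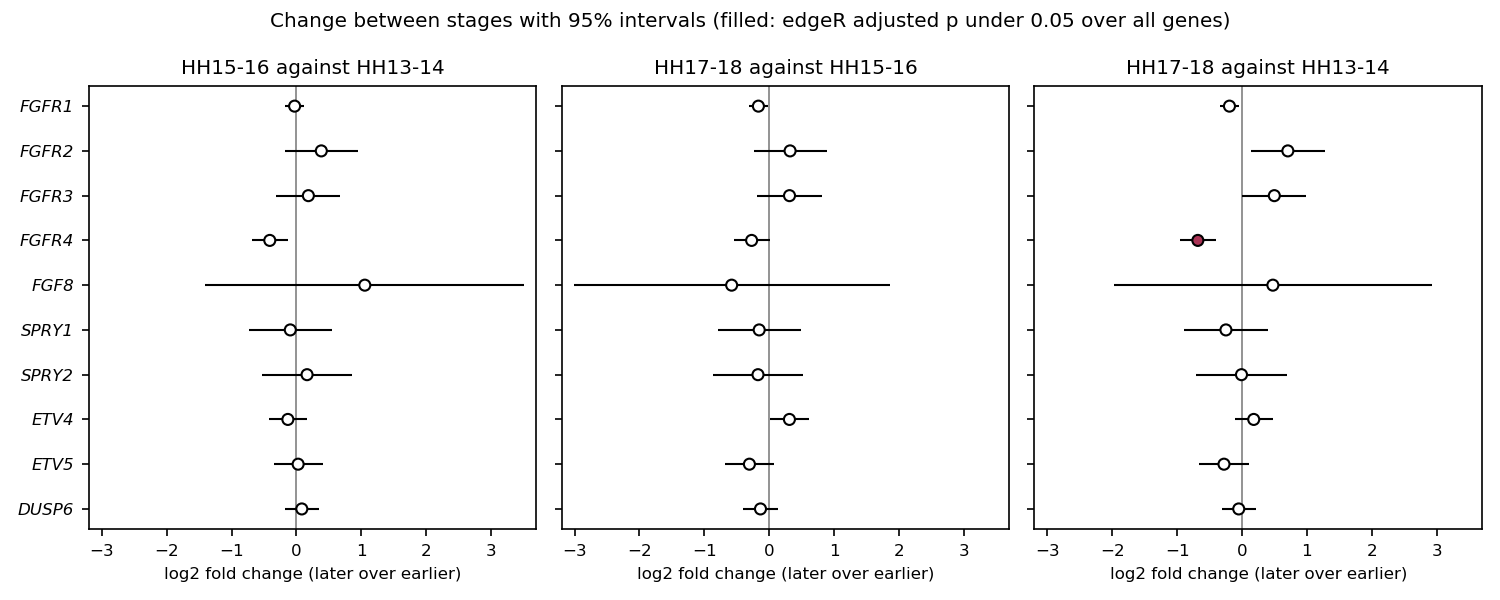
Log2 fold change of the later over the earlier stage (horizontal axes) for the 10 genes in 3 comparisons, with 95% intervals from the edgeR fit of 9 pools. The filled point marks the single call, FGFR4 at -0.68 for HH17-18 against HH13-14; the interval of FGF8 in that comparison runs from -1.97 to 2.92.

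FGF8 encodes the secreted ligand with which the midbrain-hindbrain boundary patterns its surroundings. It had 23.7, 7.61 and 7.16 CPM at HH13-14, 51.9, 27.5 and 0.570 CPM at HH15-16, and 30.2, 2.69 and 20.6 CPM at HH17-18. The highest and the lowest pool of all 9 belonged to the same stage, HH15-16, and all stages overlapped. Its log2 fold change for HH17-18 against HH13-14 was 0.48 (SE 1.10, 95% interval -1.97 to 2.92, edgeR adjusted p 0.848). This interval spans changes of several fold in either direction.

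The spread of FGF8 lay between pools and not between lanes. Replicate 1 of HH15-16 gave 1487 counts on lane 7 and 1561 on lane 8, while replicate 3 of that stage gave 17 and 18. The SD within a stage was 2.35 on the log2 scale, and 2 of the 17724 genes had a larger one. The 5 response genes had SDs of 0.155 to 0.507 on the same scale.

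The boundary markers of the pools followed a like order, as the plot of genes by pool shows. The boundary sum was lowest in replicate 2 of HH17-18, at 113 CPM, and next lowest in replicate 3 of HH15-16, at 166 CPM. These were also the 2 pools with the lowest FGF8. PAX2, a paired-box gene of the boundary, had 4.72 CPM in the first of them and 11.2 CPM in the second, where the other 7 pools had 37.9 to 104 CPM. EN1, an engrailed gene of the boundary, had 2.18 and 4.22 CPM there and 15.1 to 43.5 CPM elsewhere. LMX1B, also on the list, had 57.6 to 74.3 CPM and was not lowest in these pools. Outside the list, SOX1, PAX3 and FOXA2 had the same lowest pools. They are 1 of 7 hindbrain and neural tube, 1 of 5 placode and 1 of 5 pharyngeal endoderm markers. Of all 17724 genes, 4.98% were lowest in these same pools, beside 3 of the 10 members and 7 of the 8 boundary markers. The 2 pools were picked after the levels of FGF8, the other members and these markers were seen. These shares therefore describe the choice and are no separate result. Highest in these pools were 4.82% of all genes, beside 1 of the 10 members, FGFR2, and 7 of the 9 mesenchyme markers. The part of boundary tissue in the FGF8 level was not tested.

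**Figure D3:**
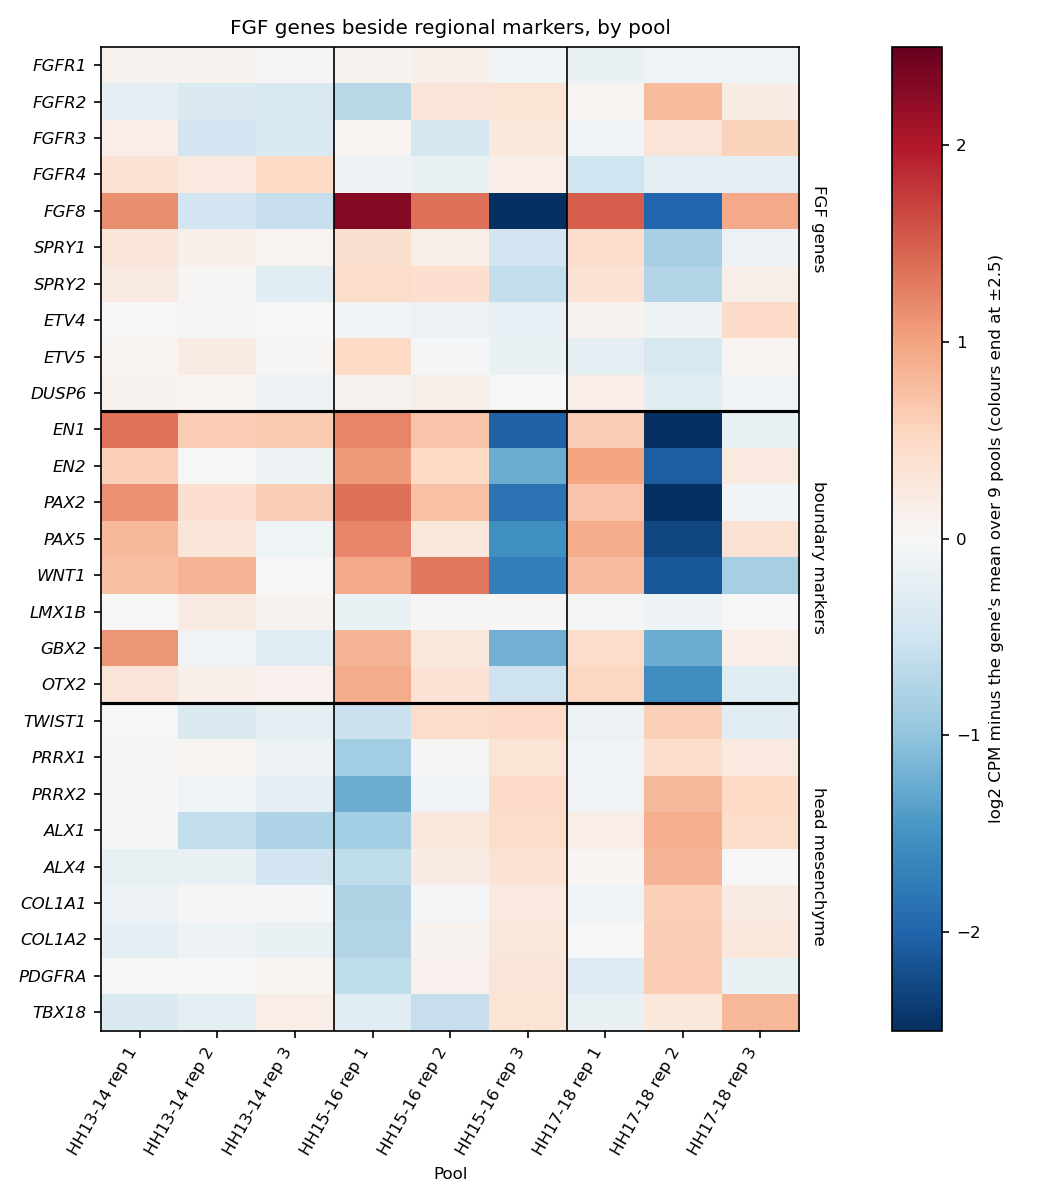
Log2 CPM of each gene minus its mean over the 9 pools (colour, ending at ± 2.5), for the 10 FGF genes, 8 midbrain-hindbrain boundary markers and 9 head mesenchyme markers (rows), by pool (columns). In replicate 3 of HH15-16 and replicate 2 of HH17-18, FGF8 (0.570 and 2.69 CPM) and most boundary markers are low. In these pools 7 of the 9 mesenchyme markers are at their highest, beside 4.82% of all genes.

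SPRY1 and SPRY2 encode Sprouty proteins, intracellular inhibitors of the RAS-ERK cascade that the cascade itself induces. SPRY1 had 32.0, 28.2 and 26.9 CPM at HH13-14, 34.3, 28.7 and 18.7 CPM at HH15-16, and 35.4, 14.6 and 23.4 CPM at HH17-18. SPRY2 had 20.5, 17.9 and 14.7 CPM at HH13-14, 24.4, 23.7 and 11.5 CPM at HH15-16, and 22.7, 10.6 and 19.5 CPM at HH17-18. For each gene the stages overlapped, and replicate 2 of HH17-18 and replicate 3 of HH15-16 were the lowest of all 9 pools, as they were for FGF8 and the boundary markers.

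The stage means of both Sprouty genes lay close together. SPRY1 averaged 24.5 ± 10.4 CPM at HH17-18, against 29.1 ± 2.65 CPM at HH13-14 (SD, n = 3 each), a log2 fold change of -0.25 (95% interval -0.89 to 0.39, edgeR adjusted p 0.674). SPRY2 averaged 17.6 ± 6.26 CPM at HH17-18, against 17.7 ± 2.94 CPM at HH13-14, a log2 fold change of -0.01 (95% interval -0.71 to 0.69, edgeR adjusted p 0.992). Both genes took either sign under the alternatives. The 2 genes moved together from pool to pool, so that their log2 ratio had a within-stage SD of 0.18, where SPRY1 alone had 0.46 and SPRY2 alone 0.51.

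Both of these pools low in boundary markers were left out in a fit chosen after the values were seen. FGFR4 was called there, at -0.73 on the log2 scale (edgeR adjusted p 0.0250), and no other member was, beside 458 of 17954 genes. In that fit SPRY1 had a log2 fold change of 0.01, SPRY2 of 0.24, and FGFR2 of 0.44 (edgeR adjusted p 0.989, 0.496 and 0.357). With the mean boundary marker level as a covariate, also chosen afterwards, FGFR4 had -0.78 (edgeR adjusted p 0.00524) and FGF8 had 1.84 (edgeR adjusted p 0.0714). The covariate fit called 887 of 17724 genes.

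ETV4 and ETV5 encode ETS-type transcription factors that carry ERK signals into the nucleus. ETV4 had 54.1, 52.9 and 53.3 CPM at HH13-14, 51.2, 48.7 and 46.5 CPM at HH15-16, and 57.4, 49.1 and 75.2 CPM at HH17-18. All pools of HH15-16 lay below all pools of HH13-14, while those of HH17-18 overlapped both, with replicate 3 above the rest. For HH17-18 against HH13-14 the log2 fold change was 0.18 (95% interval -0.11 to 0.47, edgeR adjusted p 0.474). The later step exceeded the earlier by 0.44 (95% interval -0.07 to 0.96, edgeR adjusted p 0.932).

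ETV5 had 72.3, 80.9 and 71.5 CPM at HH13-14, 98.7, 68.2 and 62.1 CPM at HH15-16, and 58.9, 52.9 and 73.5 CPM at HH17-18. The highest pool was replicate 1 of HH15-16, which also had the highest FGF8 and the highest boundary sum, 518 CPM. The next highest was replicate 2 of HH13-14, where FGF8 had 7.61 CPM. The lowest were replicates 2 and 1 of HH17-18, where FGF8 had 2.69 and 30.2 CPM. For HH17-18 against HH13-14 the log2 fold change was -0.28 (95% interval -0.66 to 0.10, edgeR adjusted p 0.384).

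DUSP6 encodes the phosphatase that switches ERK off in the cytoplasm and is a widely used readout of FGF signalling in chick tissue. It had 45.9, 44.6 and 39.1 CPM at HH13-14, 45.8, 48.0 and 43.5 CPM at HH15-16, and 48.6, 35.4 and 41.0 CPM at HH17-18. The stages overlapped, and the lowest pool was replicate 2 of HH17-18. DUSP6 averaged 41.7 ± 6.60 CPM at HH17-18, against 43.2 ± 3.61 CPM at HH13-14 (SD, n = 3 each). The log2 fold change was -0.05 (95% interval -0.31 to 0.21, edgeR adjusted p 0.849). DUSP6 varied 1.37-fold over the 9 pools, where FGF8 varied 91.2-fold.

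The rest of the pathway was followed in 5 lists of 93 genes, of which 77 passed the filter on low counts. For HH17-18 against HH13-14 edgeR called 3 of the 77, 1 higher and 2 lower, which is 3.90% beside 4.51% of all genes. Their median log2 fold change was -0.01, beside 0.02 over all genes. In each of the single steps 0 of 77 were called in edgeR, beside 0% of all genes in the earlier step and 0.0790% in the later. At an unadjusted p under 0.05 there were 19 of 77 over the interval, beside 21.6% of all genes. In the earlier step there were 4 of 77, beside 10.1%. In the later step there were 10 of 77, beside 9.32%. DESeq2 called 10 over the interval, 3 higher and 7 lower, beside 1784 of 18542 genes. It called 1 in the earlier step, beside 103 of 17021 genes, and 3 in the later step, beside 345 of 20064 genes.

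Among the other ligands, 1 of 12 tested rose and none fell in edgeR, and DESeq2 called the same one, FGF7. FGF7, a mesenchymal ligand that acts on the epithelial form of FGFR2, had 0.700, 0.449 and 0.390 CPM at HH13-14, 1.82, 2.69 and 2.33 CPM at HH15-16, and 0.827, 3.93 and 1.98 CPM at HH17-18. Each HH17-18 pool exceeded each HH13-14 pool, at low levels throughout. Over the interval the log2 fold change was 2.11 (SE 0.51, edgeR adjusted p 0.0433), and 13 of 22 alternatives lost the call. Without the 2 pools low in boundary markers it was 1.43 (edgeR adjusted p 0.136).

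FGF18, which the midbrain-hindbrain boundary also makes, had 5.81, 3.23 and 3.95 CPM at HH13-14, 10.7, 7.59 and 1.38 CPM at HH15-16, and 11.7, 1.26 and 7.84 CPM at HH17-18. Its lowest pools were those of FGF8, and its log2 fold change for HH17-18 against HH13-14 was 0.68 (edgeR adjusted p 0.650). FGF2 had 4.36 to 9.97 CPM over the 9 pools and a log2 difference of 0.13 over the interval (edgeR adjusted p 0.823). Of the 3 FGF homologous factors tested, which stay inside the cell and bind sodium channels, 0 were called in edgeR, with 2 at an unadjusted p under 0.05 and 1, FGF14, called by DESeq2. FGF13 and FGF12 had log2 differences of 0.53 and -0.21 (edgeR adjusted p 0.160 and 0.507).

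Of 24 co-receptors, binding proteins and matrix genes tested, 0 rose and 1 fell in edgeR, while DESeq2 called FLRT2 higher and FLRT3, SDC4 and SULF1 lower. FLRT3, a membrane protein that in Xenopus binds FGF receptors and promotes their signalling, had 221, 208 and 267 CPM at HH13-14, 248, 222 and 199 CPM at HH15-16, and 170, 154 and 160 CPM at HH17-18. All pools of HH17-18 lay below all pools of the earlier stages. For HH17-18 against HH13-14 the log2 fold change was -0.53 (SE 0.11, edgeR adjusted p 0.0270), and 7 of 22 alternatives lost the call. The glypicans GPC4 and GPC1, heparan sulfate carriers at the cell surface, had log2 fold changes of -0.01 each (edgeR adjusted p 0.981 and 0.944).

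None of the 19 genes of the RAS-ERK relay that were tested was called in edgeR, with 3 at an unadjusted p under 0.05 and 1, MAP2K2, called by DESeq2. The ERK gene MAPK3 had 171 to 199 CPM over the 9 pools and a log2 difference of 0.10 (edgeR adjusted p 0.409). The adaptor GRB2 had 154 to 189 CPM and a log2 difference of -0.02 (edgeR adjusted p 0.898).

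Of 19 other ERK targets and feedback inhibitors tested, 0 rose and 1 fell in edgeR, while DESeq2 called EGR1 higher and DUSP4 and MYC lower. MYC, a growth-promoting transcription factor that ERK and many other signals induce, had 62.7, 45.4 and 52.4 CPM at HH13-14, 49.3, 56.5 and 46.0 CPM at HH15-16, and 33.7, 29.3 and 22.4 CPM at HH17-18. Every pool of HH17-18 lay below every earlier pool. For HH17-18 against HH13-14 the log2 fold change was -0.91 (SE 0.16, edgeR adjusted p 0.0180), and 4 of 22 alternatives lost the call. IL17RD, a membrane inhibitor of FGF signalling also named SEF, had 122, 112 and 119 CPM at HH13-14, 187, 149 and 88.0 CPM at HH15-16, and 128, 59.5 and 94.4 CPM at HH17-18. Its lowest pools were replicate 2 of HH17-18 and replicate 3 of HH15-16, and its log2 fold change was -0.33 (edgeR adjusted p 0.551). Only 1 of the 19 genes of this list was lowest in these pools, 5.26% beside 4.98% of all genes. PHLDA1, an ERK-induced gene, had 68.9 to 117 CPM and a log2 difference of -0.32 (edgeR adjusted p 0.434).

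**Figure D4:**
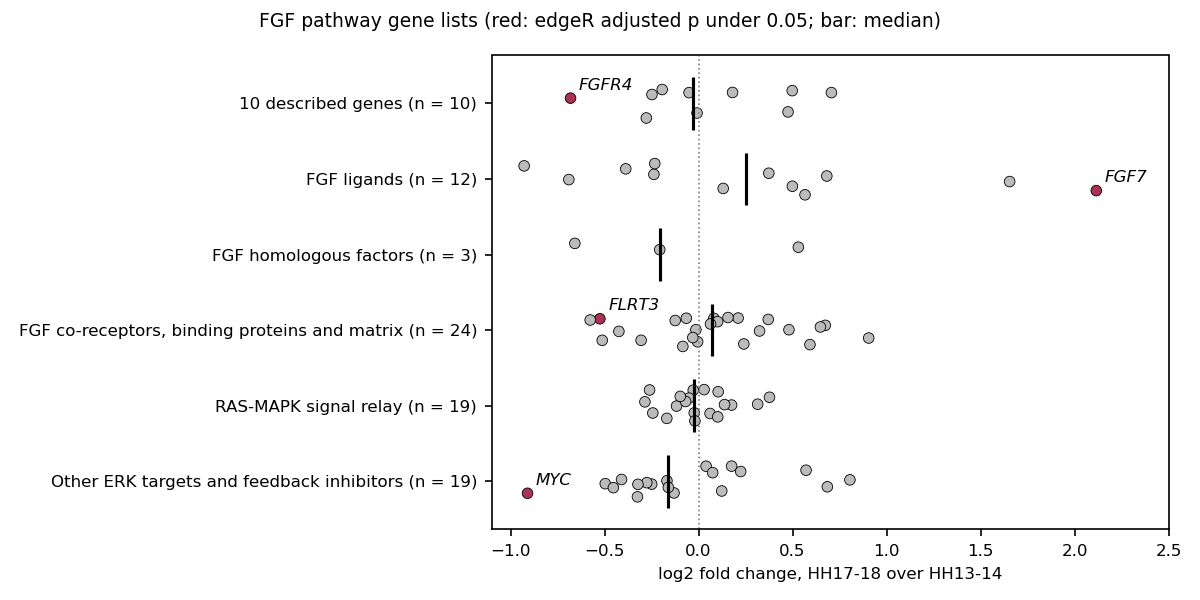
Log2 fold change of HH17-18 over HH13-14 (horizontal axis) for the 10 genes and the tested genes of 5 FGF pathway lists (rows, with the number tested). Each point is a gene, the bar is the list's median and red marks an edgeR adjusted p under 0.05: FGFR4 (-0.68), FGF7 (2.11), FLRT3 (-0.53) and MYC (-0.91).

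The genes whose pattern was most like that of a receptor were sought over the 9 pools, by the root mean square difference of log2 CPM after each gene was centred on its own mean, among 9761 other genes with a symbol and a mean of at least 5 CPM. For FGFR4 they were SLCO3A1, NRP2 and AGRN, with differences of 0.10, 0.11 and 0.11, where FGFR4 itself varied by 0.31 about its mean. All of them were lower at HH17-18, with log2 fold changes of -0.53, -0.72 and -0.61 (edgeR adjusted p 0.0298, 0.0303 and 0.00587). They were picked for likeness to FGFR4 over these same pools, so this direction follows from the choice and is no separate result. NRP2, a semaphorin receptor, averaged 377 CPM at HH17-18, against 621 CPM at HH13-14.

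For FGFR2 the nearest genes were FAM46C, SELENBP1 and ZFP36L2, with differences of 0.08, 0.09 and 0.11, where FGFR2 varied by 0.43. Like FGFR2, they had positive log2 fold changes that did not pass, 0.83, 0.81 and 0.55 (edgeR adjusted p 0.141, 0.115 and 0.189). Here too the direction follows from the choice by likeness. For FGFR1, which varied by 0.10, the nearest were ZSWIM5, ECH1 and NUFIP2 with differences of 0.05 each.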

How the data were processed

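Per the submitters' processing notes, reads were handled with Trim Galore, HISAT2 and featureCounts on build GRCg7b; versions, options, strand setting and annotation release are not given in the sources used here. Reads of overlapping or antisense genes may therefore not be separable. The authors deposited whole-number counts per gene for 18 libraries, and no value column was set aside (0 unused). For each pool, its 2 technical replicates were added up. The labels call the pools biological replicates, without saying whether embryos were shared. Technical pairs differed by a chi-square per degree of freedom of 2.14 to 2.33. Between pools of a stage, on the counts of lane 7 alone, it was 8.10 to 43.5.

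Genes were kept with filterByExpr of edgeR 4.0.16 (R 4.3.3) and scaled by TMM. The main test was glmQLFTest of edgeR, two-sided, without covariates and fitted across all genes. It was also tested on simulated counts, with larger changes than that of FGFR4 and an outcome not reported here. Means ± SD are of CPM. Intervals use the SE implied by the F statistic. Log2 levels used a prior count of 2. Alternatives included DESeq2 1.42.0 and limma 3.58.1 voom, 20 planned and 2 added after the data were seen. The members and lists were chosen with earlier results of these data known. Pathway genes were named if called over the interval, or among the 2 highest of their list by mean CPM; likeness was sought for the 3 members with the smallest stage effect p. Other genes called by DESeq2 alone, and the pools and markers set beside FGF8, FGFR2 and FGFR4, were named after their values were seen.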

Additional observations from a re-analysis of the deposited data

How the results depend on the processing

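Of 768 log2 fold changes under the alternatives, 705 kept direction and side of the threshold. Another 29 lost the call, 2 gained it and 32 changed sign, each of these last without a call in either fit. The alternatives at an adjusted p under 0.01 and under 0.1 reused the main fit, so there only the call could change. Of 239 counts, 189 stayed within 1.5 times. The cause was not tested. Members called for the stage effect were 1 (FGFR4) in place of 0 with DESeq2 size factors, the DESeq2 test, no filter, an adjusted p under 0.1, voom, the boundary covariate, without the 2 boundary-poor pools, and with the replicate block. In that order these fits called 246, 1371, 530, 691, 998, 448, 265 and 334 of all genes for the stage effect. The main fit called 230 of 17724. The genes tested were also 17724, except 18035 with the DESeq2 test, 26169 with no filter and 17954 without the boundary-poor pools. Over the interval 1 member rose in the fit of 2 stages alone, and 0 fell at an adjusted p under 0.01. Pathway genes called higher (1) and lower (2) became 3 and 7 with DESeq2, 2 and 7 in the fit of 2 stages alone, 2 and 6 with voom, 2 and 4 with the covariate, 0 and 1 without the boundary-poor pools, 0 and 7 with the replicate block, and 0 and 0 at 0.01; lanes 7 and 8 alone gave 0 higher, no filter 4 lower and 0.1 gave 7 lower. Over the interval the main fit called 800 of all genes. DESeq2 called 1784, the fit of 2 stages alone 1390, voom 1744 and the covariate fit 887. The fit without the boundary-poor pools called 458, the replicate block 876 and the threshold of 0.01 called 86. Lanes 7 and 8 alone called 600 and 579, no filter 935, and the threshold of 0.1 called 1576. Replicate pairing was checked between pools of different stages, after each gene's stage mean was subtracted from its log2 CPM. What remained correlated at a mean of 0.07 (-0.06 to 0.30) for same-numbered pools. For differently numbered pools the mean was -0.03 (-0.40 to 0.32). Only 1 of 9 pools correlated best with its own number in both other stages, so the numbers were not taken as pairs.

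Over the interval, sign changed for SPRY1 (0.043 with the covariate, 0.0083 without the boundary-poor pools), SPRY2 (0.35 and 0.24 in the same fits, 0.026 on lane 8, 0.00036 with at least 10 counts) and DUSP6 (0.045 with the covariate and 0.045 without those pools). In the earlier step it changed for FGFR1 (0.0071 on lane 7, 0.026 without those pools), SPRY1 (0.0091 with the covariate, 0.11 without those pools), and with voom for FGF8 (-0.51) and ETV5 (-0.13). In the later step it changed for FGF8 (0.88 with voom, 1.07 with the covariate), SPRY1 (0.034 with the covariate) and SPRY2 (0.088 with the covariate).

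Leaving out each pool in turn gave 0 to 1 members for the stage effect, 0 to 1 higher and 0 to 1 lower over the interval, and 0 to 2 pathway genes higher and 0 to 7 lower. Of all genes these fits called 23 to 606 for the stage effect, against 230 in the main fit. Over the interval they called 98 to 1508, against 800 in the main fit. Log2 fold changes over the interval then ran from -0.14 to 1.27 for FGF8, -0.61 to 0.015 for SPRY1, -0.24 to 0.25 for SPRY2, -0.019 to 0.31 for ETV4 and -0.18 to 0.052 for DUSP6. In the earlier step they ran from -0.070 to 0.029 for FGFR1, -0.30 to 0.12 for SPRY1, -0.018 to 0.44 for SPRY2 and -0.21 to 0.15 for ETV5. In the later step they ran from -1.21 to 0.34 for FGF8, -0.53 to 0.11 for SPRY1 and -0.45 to 0.087 for SPRY2. With 3 pools a stage, the p-values set a stage difference against the spread between pools, which edgeR estimates with information from all genes.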

Other observations

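Beside FGF18, the ligands FGF3 and FGF19 were lowest in replicate 2 of HH17-18 and replicate 3 of HH15-16, the pools lowest in FGF8. That is 3 of the 12 other ligands tested, beside 4.98% of all genes. The pools were picked after values were seen, so this share is a description and no separate result. FGF3, a ligand of the otic region and hindbrain, had 4.52, 2.64 and 3.37 CPM at HH13-14, 10.4, 4.05 and 1.12 CPM at HH15-16, and 5.71, 0.585 and 2.60 CPM at HH17-18. FGF19, which in mammals signals through FGFR4, had 1.81, 1.65 and 1.10 CPM at HH13-14, 8.93, 4.10 and 0.960 CPM at HH15-16, and 4.12, 0.676 and 1.93 CPM at HH17-18. For all 3 of these ligands the highest or next highest pool was replicate 1 of HH15-16.

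The genes nearest in pattern to FGF8 were looked up after its values were seen. They were FGF18, PAX5 and PAX2, with root mean square differences of 0.96, 1.10 and 1.14 on the log2 scale, where FGF8 itself varied by 1.92. For SPRY1 the nearest 2 were SLC4A8 and PAK1, with differences of 0.08 each, where SPRY1 varied by 0.40. SLC4A8 was also the gene nearest to SPRY2, with a difference of 0.15.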
